A study of Mus musculus with 2 samples.

Results

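The regions described are sites of open chromatin that lie inside protein-coding exons, away from the starts of genes, in the developing mouse face. They were chosen from peaks of 1 replicate that overlapped a peak of the other by 1 bp or more, merged into sites. A site was kept when its midpoint fell in coding sequence of a protein-coding gene of the GENCODE M21 basic annotation and lay over 1000 bp from every annotated transcription start site (TSS). This gave 2381 coding sites, of 177440 shared sites in all and of 141517 shared sites over 1000 bp from a TSS. A further 1772 shared sites with a coding midpoint lay at or within 1000 bp of a TSS and were left out. The rule used position and sharing between replicates, and no value of peak strength.

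The data are DNase-seq of embryonic facial prominence, the tissue that forms the face, from healthy mouse embryos of strain B6NCrl at 14.5 days, with males and females pooled. The only group had 2 biological replicates under the same donor record, with no treatment and no other tissue, so no test across samples could be made and values are described in each replicate. Promoters of all 9 listed mesenchyme genes and all 6 listed epithelial genes held a shared site, against 0 of 3 blood and 0 of 2 liver genes. Of 19632 protein-coding genes with coding sequence over 1000 bp from every TSS, 14314 also held one, so open promoters alone say little about tissue. In the longer lists used below, 19 of 33 endothelial and blood genes and 4 of 29 hepatocyte genes held one. The authors' lists held 304233 peaks in replicate 1 and 217980 in replicate 2 on the main chromosomes, each peak 150 bp long with a score that ended at 150, and no read depth is given with them. Sequencing instruments are listed for replicate 1 only, so that a difference in sequencing cannot be told apart from the replicates. Intervals given below are exact (Clopper-Pearson) 95% intervals over sites and cover counting error only. In bulk tissue, a weak site open in many cells and a strong site open in few cannot be told apart.

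DNase I cuts DNA where nucleosomes are displaced, which happens at promoters, at enhancers and at sites bound by insulator proteins. Most such sites far from promoters lie in introns or between genes, but coding exons can hold them too, and the bases there then carry both an amino acid code and sites for DNA-binding proteins. Some coding exons act as enhancers of neighbouring genes. Exons of Dync1i1, a subunit of the dynein motor, and of Hdac9, a histone deacetylase, are known for this, with the homeobox genes Dlx5 and Dlx6 and the transcription factor gene Twist1 as their targets. CTCF, a zinc finger protein that binds insulators and the bases of chromatin loops, is known to bind inside exons as well.

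The sequences below are from the GRCm38 reference, which has the coordinates of mm10, and are written 5′ to 3′ on the coding strand of the gene. Shown first are the 4 coding sites of highest rank that lay wholly in a single coding exon and were free of annotated noncoding exon bases, with each CpG in capitals. They are in exon 2 of Angptl6 (chr9:20878196-20878365, minus strand), in the last exon of Zfp771 (chr7:127254156-127254325, plus strand), in the last exon of Fbxl22 (chr9:66511736-66511885, minus strand) and in exon 3 of Kank3 (chr17:33817636-33817785, plus strand). They hold 20, 30, 26 and 19 CpG over 170, 170, 150 and 150 bases in that order. These limits left out the site of highest rank, in B430305J03Rik, which has 4 CpG in its 150 bp window.
Angptl6: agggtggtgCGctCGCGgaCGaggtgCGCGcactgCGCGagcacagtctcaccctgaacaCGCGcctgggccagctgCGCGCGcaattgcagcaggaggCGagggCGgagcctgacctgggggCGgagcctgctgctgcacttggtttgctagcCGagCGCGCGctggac
Zfp771: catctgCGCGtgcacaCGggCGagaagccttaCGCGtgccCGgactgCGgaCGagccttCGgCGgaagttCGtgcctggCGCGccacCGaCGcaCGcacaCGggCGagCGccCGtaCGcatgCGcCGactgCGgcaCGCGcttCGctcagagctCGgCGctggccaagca
Fbxl22: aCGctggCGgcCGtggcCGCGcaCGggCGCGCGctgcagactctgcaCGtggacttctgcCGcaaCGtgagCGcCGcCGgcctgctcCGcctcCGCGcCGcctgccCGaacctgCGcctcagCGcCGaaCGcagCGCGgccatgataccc
Kank3: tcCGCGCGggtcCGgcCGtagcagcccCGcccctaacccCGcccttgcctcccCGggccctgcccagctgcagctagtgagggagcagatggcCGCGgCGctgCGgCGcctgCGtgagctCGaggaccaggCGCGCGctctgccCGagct

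The next pair shows a coding site with a CTCF string and one with an AP-1 string, each the highest ranked with that string under the same limits, and the capitals mark the string. The CTCF site lies in the last exon of Synpo2l, which codes for an actin-associated protein (chr14:20661076-20661225, minus strand). The AP-1 site lies in exon 6 of Prr36 (chr8:4214356-4214525, minus strand). AP-1 is a dimer of leucine zipper proteins common at enhancers.
Synpo2l: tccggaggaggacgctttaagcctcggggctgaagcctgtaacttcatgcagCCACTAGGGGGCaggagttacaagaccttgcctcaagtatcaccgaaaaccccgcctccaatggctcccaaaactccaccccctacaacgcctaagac
Prr36: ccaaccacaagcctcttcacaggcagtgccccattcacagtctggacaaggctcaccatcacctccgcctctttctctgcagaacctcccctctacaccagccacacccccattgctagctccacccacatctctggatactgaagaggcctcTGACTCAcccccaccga

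The last set shows sites at exons of the genes known for exonic enhancers, with the coding bases in capitals, so that the splice signals beside them can be read in lower case. Exons 16 and 19 of Hdac9 (chr12:34248316-34248465 and chr12:34215396-34215585, minus strand) each held a coding site. Peaks of both replicates at exon 15 of Dync1i1 (chr6:6006176-6006345, plus strand) reached into the exon, but the midpoint of the merged site lay in the intron before it, so it is not among the coding sites.
Hdac9 exon 16: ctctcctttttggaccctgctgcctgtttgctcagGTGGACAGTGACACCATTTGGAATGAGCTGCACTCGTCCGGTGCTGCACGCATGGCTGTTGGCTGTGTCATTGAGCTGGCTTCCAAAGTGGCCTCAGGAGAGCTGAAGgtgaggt
Hdac9 exon 19: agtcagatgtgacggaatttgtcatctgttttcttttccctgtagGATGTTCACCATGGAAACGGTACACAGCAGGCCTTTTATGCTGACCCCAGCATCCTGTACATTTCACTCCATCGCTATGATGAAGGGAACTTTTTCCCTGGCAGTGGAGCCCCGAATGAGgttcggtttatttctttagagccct
Dync1i1 exon 15: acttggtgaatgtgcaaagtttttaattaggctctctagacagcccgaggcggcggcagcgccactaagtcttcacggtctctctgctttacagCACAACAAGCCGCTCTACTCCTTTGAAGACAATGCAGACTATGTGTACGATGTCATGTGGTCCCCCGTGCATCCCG

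Coding sites were small and mostly ran past the edge of their exon. Their width was 150 to 510 bp with a median of 170 bp, and the coding exons that held them had a median length of 209 bp. Of the 2381 sites, 901 (37.8%, interval 35.9 to 39.8) lay wholly inside a single coding exon and 1480 crossed an exon edge. Only 237 touched a base annotated as untranslated or other noncoding exon. All 2381 overlapped a hotspot, the authors' broader call of enriched cutting, in both replicates, and 704 overlapped one at the ceiling of the hotspot value in both. Neither count is given for other sites, so neither sets coding sites apart. The median distance to the nearest TSS was 8198 bp, and 39 sites were over 100 kb from every TSS.

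In strength, coding sites were close to intronic sites overall. The median peak score was 58 in replicate 1 and 40 in replicate 2 at coding sites, against 61 and 38 at the 60604 intronic sites. As percentile ranks within each list, averaged over the replicates, the medians were 58.9 for coding and 58.8 for intronic sites. The strongest end differed more from introns. In the top 10% of both lists were 137 coding sites (5.75%, interval 4.85 to 6.77), against 3.73% of intronic sites. Noncoding exon sites, at 5.02%, lay inside that interval, and intergenic sites were at 4.35%. The scores of the replicates followed each other about as closely at coding as at intronic sites, with a Spearman correlation of 0.790 and 0.780 across sites, which are not independent replicates. Every site in the plot of scores by replicate was called in both, so weak sites seen in a single replicate are not in it.

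**Figure D1:**
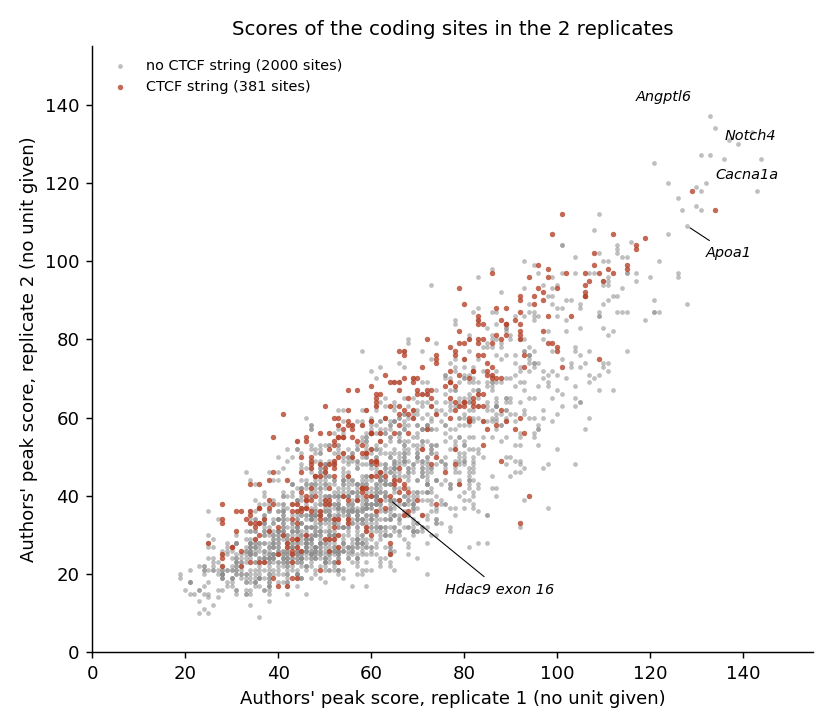
Authors' peak score of each of the 2381 coding sites in replicate 1 (horizontal) and replicate 2 (vertical), one point per site, with the 381 sites holding a CTCF string in red. The scores rise together, and the red points sit toward higher scores in replicate 2, where their median was 56 against 38 for the other sites.

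The share of peaks found in both replicates differed little between coding exons and introns. Replicate 1 had 4164 coding peaks over 1000 bp from a TSS, of which 58.4% (interval 56.9 to 59.9) were shared, against 55.9% of its intronic peaks. Replicate 2 had 3028, of which 79.7% (interval 78.2 to 81.1) were shared, against 83.8% of its intronic peaks. Within each of the 7 GC classes, coding peaks were shared less often than intronic ones in both replicates. For example, 53.5% of coding and 56.1% of intronic peaks of replicate 1 were shared at 50 to 55% GC. Coding peaks also had lower median scores there, 45 against 52. Within 10 classes of score, coding peaks of replicate 1 were shared more often in all but the highest, with 56.6% against 46.7% in class 5. In replicate 2 they were shared less often in all but the highest, with 79.4% against 88.5% in class 5. In replicate 1 the median score was 58 for shared and 37 for unshared coding peaks, and in replicate 2 it was 40 and 25.

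Coding sequence held more sites per length than introns, and this turned round once base composition was matched. There were 79.97 sites per Mb of coding sequence over 1000 bp from a TSS, against 68.5 per Mb of intron, 79.3 per Mb of noncoding exon and 45.4 per Mb between genes. Coding sites made up 1.68% of distal sites (interval 1.62 to 1.75) on 1.14% of the distal sequence. The ratio of coding to intronic density was 1.17, and it was 1.13 with all peaks of replicate 1 and 1.21 with all peaks of replicate 2.

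Site density rose steeply with GC content in both kinds of sequence, and coding exons are much richer in GC. In windows of 150 bp with 50 to 55% GC, coding sequence had 65.4 sites per Mb, against 135 per Mb in introns. With 60 to 65% GC it had 154.6 per Mb, against 357 in introns. With 65% GC or more it had 538 per Mb, against 624 in introns, and below 40% GC it had 7.43, against 13.5. The coding density was the lower one in all 7 GC classes, at 0.391 to 0.862 of the intronic density. When introns were weighted to the GC classes of coding sequence, their density became 150 per Mb and the ratio of coding to intronic density 0.532. It was 0.571 with all peaks of replicate 1 and 0.575 with all peaks of replicate 2, and 0.499 when distance from the TSS was matched as well. These matched ratios were added after the data were seen.

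**Figure D2:**
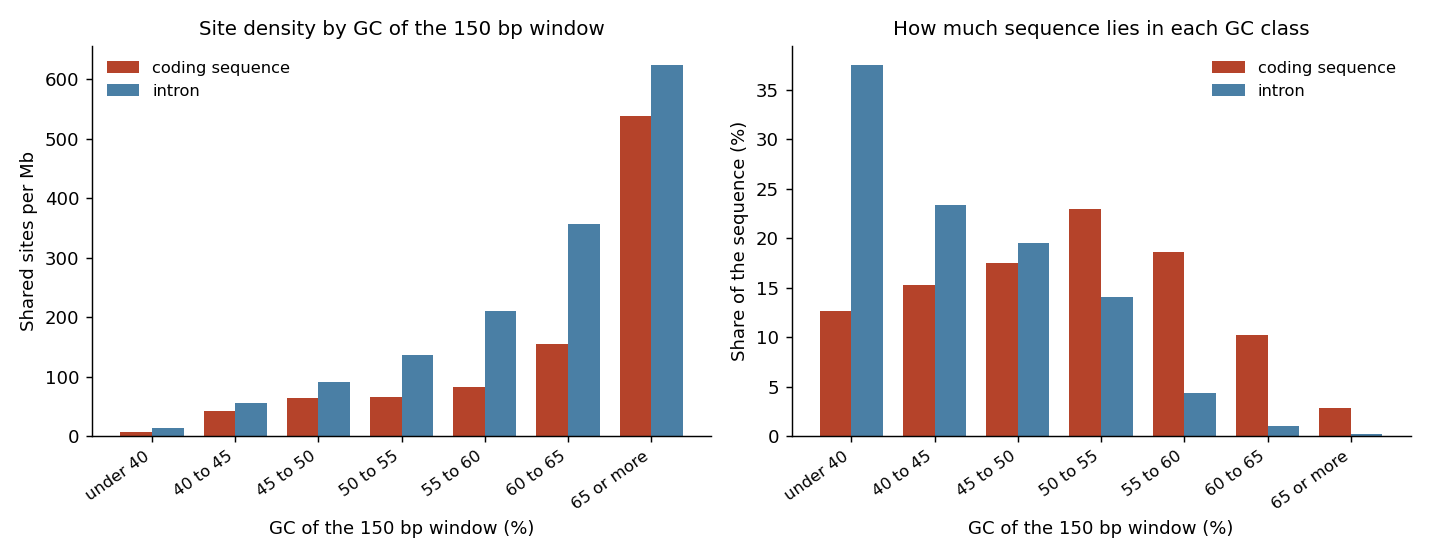
Left, shared sites per Mb of coding sequence (red) and of intron (blue) by the GC content of the 150 bp window. Right, the share of each kind of sequence in each GC class. Coding density is below intronic density in every class, while 2.87% of coding sequence and 0.175% of intron has 65% GC or more.

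Scores behaved in the same way as density. Within each of the 7 GC classes the median of the mean rank was lower at coding than at intronic sites, although the medians over all sites were close, as given above. It was 53.5 at coding and 61.3 at intronic sites with 50 to 55% GC, and 75.8 at coding and 83.7 at intronic sites with 65% GC or more. Coding sites were more often in the rich classes, with 460 of 2381 (19.3%) at 65% GC or more, against 1.60% of intronic sites.

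Open coding windows were also richer in GC than closed ones in the same genes. Closed coding windows are 150 bp windows along the coding sequence of genes with a coding site that overlapped no peak or hotspot of either replicate. GC was 57.1% ± 9.02 at the 2381 coding sites, against 51.1% ± 8.26 in 30712 closed windows (SD over windows), so that the difference of 5.99 points is smaller than the spread within either set. CpG averaged 7.01 ± 5.79 per window at coding sites and 3.72 ± 2.76 in closed windows. Intronic sites had 49.5% GC and 2.51 CpG per window.

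The GC difference was found at every codon position and was largest at the third, where most changes leave the amino acid as it is. GC at the first codon position was 61.5% at coding sites, against 56.6% in closed windows. At the second it was 47.1% at coding sites, against 43.0% in closed windows. At the third it was 66.5% at coding sites, against 57.6% in closed windows, a difference of 8.95 points, compared with 4.83 and 4.06 points at the first and second. With all closed coding windows of the genome in place of those in the same genes, the difference at the third position was 10.3 points.

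**Figure D3:**
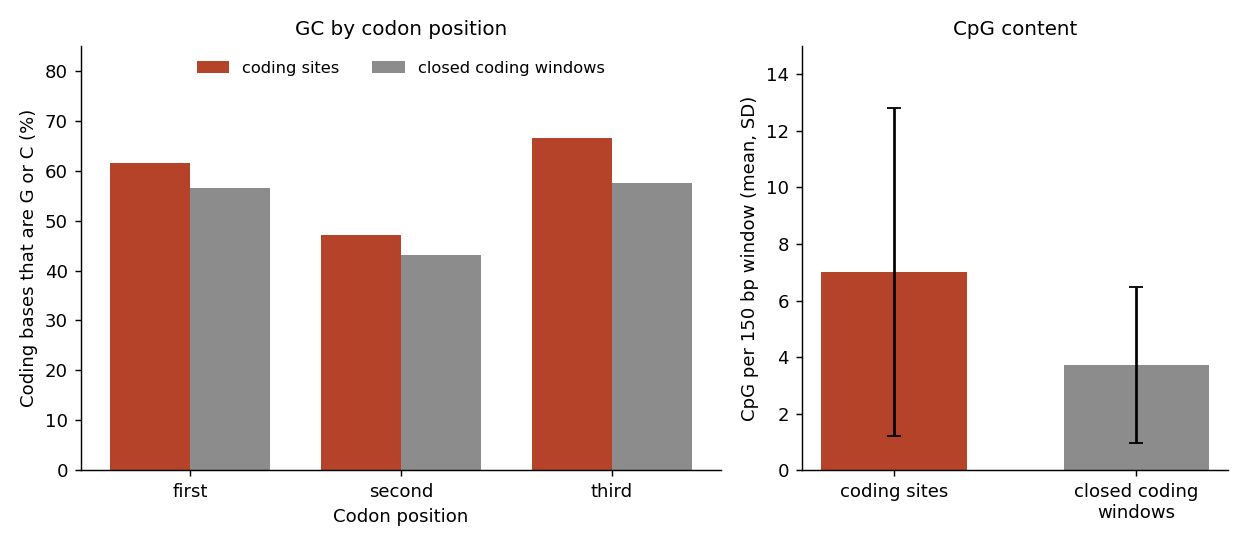
Left, the share of coding bases that are G or C at each codon position in the 150 bp windows of coding sites (red) and in closed coding windows of the same genes (grey). Right, CpG per window, as mean with SD over windows. The gap is widest at the third position, at 66.5% in coding sites and 57.6% in closed windows.

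Density also varied with position in the gene. Coding sequence 1 to 2 kb from a TSS held 154 sites per Mb and that 2 to 5 kb away 86.4. Farther out there was no steady fall. The density was 69.2 per Mb at 5 to 10 kb, 62.0 at 10 to 20 kb, 72.4 at 20 to 50 kb, 76.6 at 50 to 100 kb and 64.0 over 100 kb away. By kind of exon, the density was 140 per Mb in first coding exons, 132 in single-exon coding sequences, 105 in last coding exons and 67.02 in internal ones. It was 53.2 per Mb in coding exons under 100 bp and 105 per Mb in those from 500 bp to under 1000 bp. Within GC classes the relation to exon length differed. At 45 to 50% GC the density was 59.4 per Mb in exons under 100 bp, 80.1 in those from 100 bp to under 150 bp and 43.4 in those of 1000 bp or more. At 60 to 65% GC it was 162 under 100 bp, 119 from 100 bp to under 150 bp and 172 at 1000 bp or more. By chromosome, density was 113 per Mb on chromosome 10 and 31.4 per Mb on X.

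Cover by shared sites was only slightly higher over exons than in the introns beside them. Of 57795 internal coding exons with long introns on both sides, 1.22% had a shared site over their centre, against 1.06% at 400 bp outside their ends. The ratio was 1.15, with 0.881 for exons under 100 bp and 1.62 for exons of 200 bp or more. When only peaks at or above the median score of their list were used, it was 0.995, and it was 1.21 and 1.28 with the peaks of a single replicate. For exons of up to 200 bp the profile had its top at 30 bp past the middle of the exon in the direction of transcription, at 1.29% of exons.

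**Figure D4:**
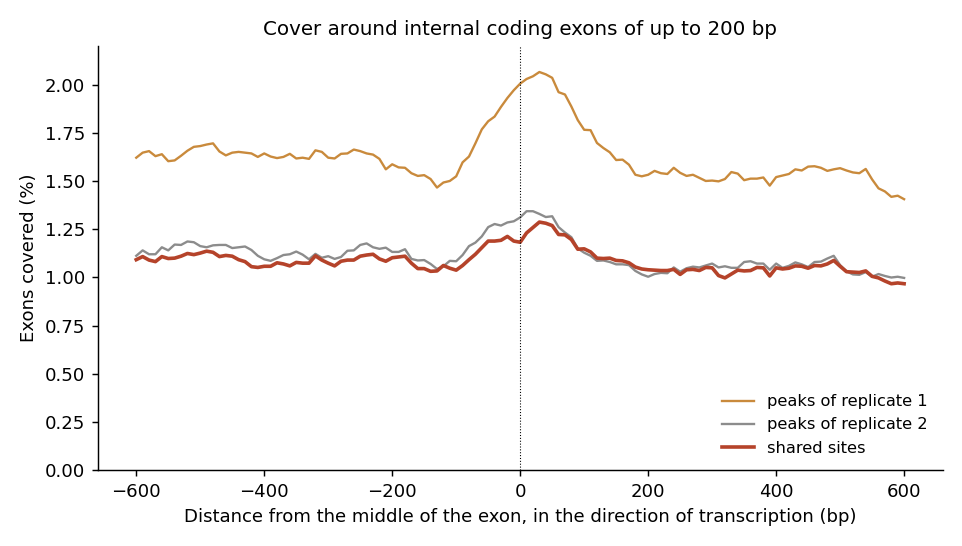
Share of 49738 internal coding exons of up to 200 bp that were covered at each distance from the exon's middle, by shared sites (red) and by peaks of replicate 1 (orange) or replicate 2 (grey). All curves rise over the exon, to 1.29% for shared sites at 30 bp, against 1.06% at 400 bp before the middle.

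The CTCF consensus string was more frequent at coding sites than in either comparison set. The string, which is CC, then 3 bases of any kind, AG, 2 bases of any kind and GGC, was searched on both strands of the central 150 bp. It was in 381 of 2381 coding sites (16%, interval 14.6 to 17.5), against 9.89% of intronic sites and 3.09% of closed coding windows. Its share was above that of closed windows in all 7 GC classes, for example 13.4% of coding sites and 2.61% of closed windows at 50 to 55% GC, and 20.9% of coding sites and 8.60% of closed windows at 65% or more. The gap to intronic sites was smaller in the classes from 40 to 60% GC, with 13.4% (interval 10.4 to 16.9) against 10.9% at 50 to 55%. At 65% or more it was 20.9% against 11.9%. Under 40% GC the order was reversed, with 3.57% of 28 coding sites against 8.17% of intronic ones. The string lay on the coding strand in 181 sites, on the other strand in 189 and on both in 11. Of its 402 matches, 55% had their middle within 25 bp of the centre of the site. Matches spread evenly over the 150 bp would also fall there in part, and no such share is given for the comparison sets.

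CTCF strings went with strong sites, and more so in replicate 2. The share of coding sites with the string was 9.49% in the lowest of 5 equal classes of rank and 28.2% in the highest, where GC was also higher, at 62.2% against 51.9%. The median score was 63 in replicate 1 and 56 in replicate 2 at the 381 sites with the string, against 58 and 38 at the 2000 without. In ranks, 235 of the 381 (61.7%, interval 56.6 to 66.6) ranked higher in replicate 2 than in replicate 1, against 33.6% of sites without the string (interval 31.5 to 35.7). Intronic sites showed the same split, with 63.9% of those with the string ranking higher in replicate 2, against 21.0% of those without. At coding sites it held in all 7 GC classes, although the lowest class had 1 site with the string. The string was also in 10.9% of coding peaks found in replicate 2 only (67 of 614), against 4.68% of those found in replicate 1 only (81 of 1732).

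Other consensus strings differed in how far they followed base composition. The CAGCTG E-box, the core bound by basic helix-loop-helix factors such as Myod1, was in 26.6% of coding sites, 20.01% of intronic sites and 13.0% of closed windows, and it was above closed windows in all 7 GC classes. The palindrome of the NFI factors, TTGGC and GCC with 5 bases of any kind between them, was in 3.78% of coding sites, 3.88% of intronic sites and 0.414% of closed windows. The GC box GGGCGG of the SP and KLF factors was in 12.6% of coding sites, 6.36% of intronic sites and 4.25% of closed windows. In every GC class from 45% up, however, it was less frequent at coding than at intronic sites. At 65% GC or more it was in 34.3% of coding sites, 54.0% of intronic sites and 24.9% of closed windows. At 50 to 55% it was in 4.70%, 5.89% and 2.91% in the same order. The string GCCNNNGGC of the TFAP2 factors, which act in neural crest and facial ectoderm, was in 9.87% of coding sites, 5.76% of intronic sites and 5.68% of closed windows. Within GC classes it was close to closed windows, with 22.4% of coding sites and 21.8% of closed windows at 65% GC or more, and 4.70% of coding sites and 4.95% of closed windows at 50 to 55%.

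The AP-1, homeodomain, RUNX, TEAD and SOX strings were less frequent at coding than at intronic sites. The AP-1 string TGANTCA was in 2.98% of coding sites (71 sites), 6.43% of intronic sites and 3.18% of closed windows. The homeodomain string TAATTA was in 0.966% of coding sites, 4.17% of intronic sites and 1.59% of closed windows. The RUNX string TGTGGTT was in 2.39%, 5.47% and 2.46% in the same order, the TEAD string GGAATG in 8.57%, 12.7% and 7.57%, and the SOX string ACAAAG in 7.98%, 13.3% and 10.9%. Within GC classes, only the homeodomain string stayed below intronic sites in all 7, and SOX was not split by GC. The order was reversed for AP-1 at 40 to 45% GC, with 8.85% of coding and 7.02% of intronic sites. For TEAD it was reversed at 50 to 55%, with 13.9% and 13.0%. Under 40%, with 28 coding sites, it was reversed for AP-1, RUNX and TEAD. Against closed windows, AP-1 and RUNX were more frequent at coding sites in every class under 60% GC, and less frequent from 60% up. For AP-1 the shares were 8.85% and 4.82% at 40 to 45%, but 2.43% and 2.22% at 55 to 60%. TEAD was above closed windows in every class under 65%. The homeodomain string was above them from 45 to 60% and below them under 45%, and from 60% up neither set held it. Strings of MEF2 and SRF were found in 0 of 2381 coding sites, with an exact upper bound of 0.155%. They were rare elsewhere too, with MEF2 in 0.139% of intronic sites and 0.00651% of closed windows, and SRF in 0.0413% and 0.0293%. These shares lie below the upper bound, so the count of 0 does not set coding sites apart. In all, 28 strings were searched, and a match does not show that the factor was bound.

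**Figure D5:**
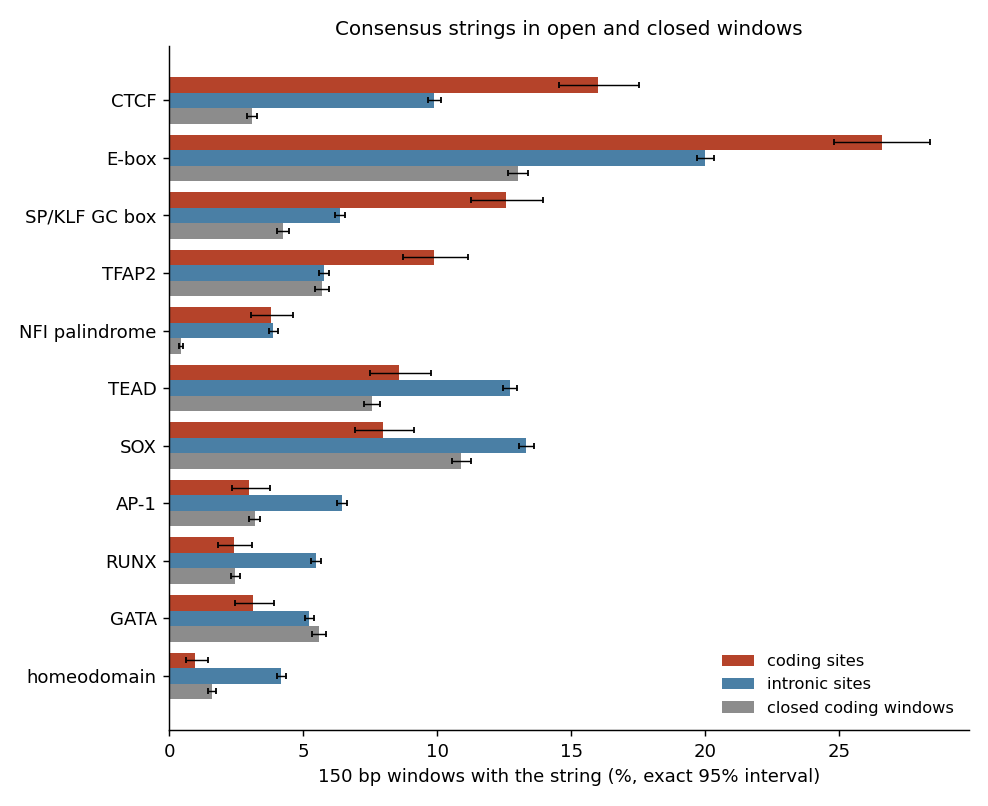
Share of 150 bp windows that hold each of 11 consensus strings on either strand, in coding sites (red), intronic sites (blue) and closed coding windows of the same genes (grey), with exact 95% intervals; the E-box is CAGCTG. CTCF reaches 16% in coding sites, 9.89% in intronic sites and 3.09% in closed windows.

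The sites were spread over many genes. Of 19632 protein-coding genes with coding sequence over 1000 bp from every TSS, 2059 (10.5%) had at least 1 coding site, and 1767 of those had exactly 1. The share was 11.9% of genes with an open promoter, which is a shared site within 500 bp of a TSS, and 6.73% of genes without one. It followed the length of the coding sequence, with 1.93% of the shortest 10% of genes and 27.6% of the longest 10%. The coding site lay in a gene whose own promoter was not open in 17.4% of cases, against 7.81% of intronic sites. In 28.5% of cases the nearest TSS of a protein-coding gene belonged to another gene, against 21.7% of intronic sites.

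Tchh and Syne1 had the most coding sites, with 8 each. Tchh codes for trichohyalin, a structural protein of the hair follicle's inner root sheath, and its promoter was not open. All of its 8 sites lay in exon 2, a coding exon of 4659 bp on chromosome 3, at 1401 to 5341 bp from its TSS. Their scores were 61, 71, 128, 83, 79, 43, 111 and 91 in replicate 1 and 42, 32, 89, 52, 44, 43, 81 and 68 in replicate 2, from the 5′ to the 3′ end of the exon. The third and seventh were the strongest in both replicates, and GC was 56.0 to 64.7% at all 8. The sixth site was 450 bp wide and 78.4% of its 20 base words occurred elsewhere in the Tchh coding sequence, which limits how far reads can be placed there. The other 7 lay in less repeated sequence, with a median of 1.54% over the 8, and the value was 0 at every site of the other 11 genes with most sites.

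Syne1 codes for a giant protein that links the nuclear envelope to the actin cytoskeleton. Its 8 sites lay in 8 of 146 exons, and the strongest, in exon 55, scored 110 in replicate 1 and 73 in replicate 2; with CCDS transcripts alone the gene held 0. Dst, which codes for dystonin, a linker of cytoskeletal filaments, had 6 sites, and 3 of them lay in its exon of 5292 bp with scores of 44, 41 and 36 in replicate 1 and 29, 18 and 33 in replicate 2. Sptbn4, a spectrin gene, had 5 sites with scores of 38 to 92 in replicate 1 and 32 to 77 in replicate 2. Adgrv1, Fzd8, Lrba, Nrap and Numa1 had 4 each. Among genes with 4 or more sites, Fzd8, the gene of a Wnt receptor in a single exon, had the most per length, with 2.21 sites per kb of eligible coding sequence, and Tchh had 1.72 per kb. The 4 sites of Fzd8 had scores of 105, 102, 94 and 53 in replicate 1 and 76, 97, 65 and 38 in replicate 2. They numbered 2 when an overlap of 75 bp was asked, and 1 with hotspots in place of peaks or with a limit of 2000 bp from a TSS.

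The nearest protein-coding start was not always that of the gene holding the site. The site of Lrba in exon 45, which scored 91 in replicate 1 and 46 in replicate 2, had the TSS of Mab21l2, a developmental gene, as the nearest protein-coding one, 93268 bp away. The 4 sites of Numa1, which codes for a mitotic spindle protein, all lay in its coding exon of 3360 bp and had scores of 55, 86, 92 and 100 in replicate 1 and 26, 69, 32 and 52 in replicate 2, and the third is high in replicate 1 and low in replicate 2. Nrap, a gene of muscle, had no open promoter and 4 sites with scores of 57 to 87 in replicate 1 and 37 to 64 in replicate 2.

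Of the 12 sites of highest rank, 10 had over 60% GC; the exceptions were those of B430305J03Rik and Bcat2, with 51.3% and 58.7%. Exon 2 of Angptl6, which codes for a secreted angiopoietin-like protein, scored 133 in replicate 1 and 137 in replicate 2, and the promoter of the gene was not open. The last exon of Zfp771, a zinc finger gene, scored 139 and 130. In Fbxl22, which codes for an F-box protein, the site scored 144 and 126, and exon 3 of Kank3 scored 137 and 131. The last exon of Notch4, a receptor of endothelium, scored 133 and 127 with 78.7% GC, and the nearest protein-coding TSS was that of Gpsm3. The last exon of Cacna1a, which codes for a calcium channel of neurons, scored 131 and 127 with 78.0% GC, 22447 bp from the nearest TSS. A site in Pomc, the gene of a precursor of pituitary hormones, scored 130 and 119. The highest rank of all was in B430305J03Rik, with 142 and 133, a site that also touched noncoding exon bases. Hotspots at the ceiling lay over all 12 of the top sites in both replicates.

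Among facial mesenchyme transcription factors, 8 of 41 genes had a coding site, where 3.39 would follow from genes of like coding length, and the list held 322 sites per Mb against 81.8 over all genes. Tbx3, a T-box factor of limb and face, had 3 sites, with scores of 46, 66 and 68 in replicate 1 and 43, 50 and 56 in replicate 2. Hic1, a zinc finger repressor, had 2 with scores of 80 and 50 in replicate 1 and 64 and 46 in replicate 2. Sox9, the master factor of cartilage, had 2 with scores of 81 and 57 in replicate 1 and 45 and 52 in replicate 2. The sites of Tbx3, Hic1 and Sox9 had 61.3 to 72.0% GC. Promoters were open in 38 of the 41 genes of the list, against 14314 of all 19632 genes, so that promoter state differs between the list and the rest as well. Neither the count from coding length nor the sites per Mb was matched on GC or distance from a TSS, here or in the lists below. Site density varied with both.

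Of craniofacial signalling genes, 11 of 46 had a coding site, with 6.42 from coding length. The list held 107 sites per Mb, against 81.8 over all genes. The last exon of Fgf8, a growth factor of the facial ectoderm, scored 87 in both replicates, and its promoter was not open. The last exon of Wnt10a, a Wnt ligand of teeth and hair, scored 100 in replicate 1 and 88 in replicate 2, again with no open promoter. Exon 6 of Bmpr1b, a BMP receptor, scored 92 and 80 at 68502 bp from a TSS. Genes of cartilage and bone had sites in 4 of 32, with 4.31 from coding length, among them Sp7, the osteoblast factor, with scores of 50 and 45. Of large zinc finger and homeodomain factors, 9 of 34 had a site, with 8.75 from length. Of chromatin regulators of craniofacial syndromes, 12 of 39 had one, with 9.85 from length, and Kmt2a scored 77 and 60 in exon 11. Per Mb, these large factors held 77.5 sites and the chromatin regulators 61.4, both below the value over all genes.

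More structural genes had a site than followed from the length classes, but their sites per Mb were near those of all genes. Among actin, microtubule and nuclear envelope giants, 17 of 35 had a coding site, with 9.36 from length. The class of longest genes has no upper limit, so giant genes are not fully matched on length. Among matrix genes, 17 of 41 had one, with 11.1 from length. Giants held 83.6 sites per Mb and matrix genes 90.9, against 81.8 over all genes. Col6a3, a chain of collagen VI, had 3 sites with scores of 89, 87 and 57 in replicate 1 and 55, 60 and 29 in replicate 2. Ltbp4, a binding protein of latent TGF-beta, had 3 with scores of 73, 76 and 73 in replicate 1 and 57, 47 and 47 in replicate 2. Fbn2, a fibrillin, had 3 with scores of 68, 112 and 50 in replicate 1 and 39, 82 and 27 in replicate 2. Epithelial genes had sites in 3 of 38, with 6.24 from length, and these were Dst, Evpl and Klf5. Evpl, the envoplakin gene of the cornified envelope, had scores of 65 and 64 in replicate 1 and 32 and 57 in replicate 2.

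Genes of other cell types also held coding sites. Neuronal genes had them in 14 of 42, with 8.80 from length, endothelial and blood genes in 8 of 33, with 5.48 from length, and skeletal muscle genes in 9 of 36, with 7.05 from length. Sites per Mb were 108, 116 and 52.1 in that order, against 81.8 over all genes. Klf1, the factor of red blood cells, had sites scoring 94 and 81 in replicate 1 and 96 and 77 in replicate 2. Spi1, the factor of myeloid cells, had 1 scoring 108 in replicate 1 and 102 in replicate 2. Neither had an open promoter. Of hepatocyte genes, 2 of 29 had a site, with 3.70 from length. Exon 4 of Apoa1, an apolipoprotein made in liver, scored 128 and 109, and exon 7 of Alb, the albumin gene, scored 48 and 44, and both promoters were not open. The lists were written with earlier results of these data known, and no set test was made.

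At the genes known for exonic enhancers, the peaks at exon 15 of Dync1i1 were stronger than those reaching coding exons of Hdac9. Hdac9 held 6 such peaks in replicate 1 and 3 in replicate 2. The strongest, at exon 25, scored 83 in replicate 1 and 47 in replicate 2. Their midpoints lay in noncoding exon, so they made no coding site. The site at exon 16 of Hdac9 scored 64 in replicate 1 and 39 in replicate 2, and that at exon 19 scored 63 and 34, 42744 and 75644 bp from the nearest TSS. The coding sites of Hdac9 numbered 0 when hotspots, placed by their own midpoints, were used in place of peaks, and 0 with the CCDS transcripts alone. At exon 15 of Dync1i1, the peak of replicate 1 scored 86 with 76 coding bases and that of replicate 2 scored 64 with 56 coding bases, above the upper quartiles of coding sites, 74 in replicate 1 and 57 in replicate 2. A stronger peak lay in the intron just before it, with scores of 114 and 115. Dync1i1 held 45 peaks in replicate 1 and 44 in replicate 2, and no other of them touched a coding exon.

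A few sites differed strongly between the replicates or lay at an extreme of position. Exon 13 of Ogdh, a mitochondrial enzyme gene, ranked 68.8 points higher in replicate 1, and exon 18 of Xpo7, an exportin gene, ranked 50.2 points higher in replicate 2. Of all coding sites, 1474 (61.9%) ranked higher in replicate 1. Intronic sites leaned the same way, and more often in every GC class from 40% up. At 50 to 55% GC, 77.1% of intronic and 71.6% of coding sites ranked higher in replicate 1. Under 40% GC the shares were 61.4% of intronic sites and 67.9% of 28 coding sites. The coding site farthest from any TSS, at 343951 bp, lay in the last exon of Naaladl2 and scored 48 in replicate 1 and 38 in replicate 2. The sites just inside the 1000 bp limit were in Gnas, Hspa2 and Espn, at 1002 to 1004 bp, with scores of 74, 54 and 66 in replicate 1 and 33, 43 and 56 in replicate 2. Those just outside were in Pglyrp4, Mroh6 and Hcrt, at 997 to 1000 bp, with scores of 39, 50 and 69 in replicate 1 and 21, 42 and 54 in replicate 2.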

How the data were processed

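DNase-seq was measured in 2 biological replicates of 1 group. Per the deposited text with each sample, the authors called peaks and hotspots on mm10 in each replicate by itself, without pooling. What aligner and peak caller they used, and the depth, is not stated in the material used here. The deposited peak files hold a score from 1 to 150 for each peak of 150 bp, whose scale is not stated. The deposited hotspot files hold the −log10 of a q-value, with a ceiling of 100. Precision is limited by the unknown depth, and intervals cover counting error only.

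From these files, peaks on the main chromosomes (256 and 241 others left out) were merged where the replicates overlapped by 1 bp or more and assigned by midpoint to coding sequence, noncoding exon, intron or intergenic sequence with GENCODE M21 basic on mm10. Closed coding windows of 150 bp were laid every 150 coding bases along each gene's longest coding sequence. Counts of genes per list were set beside those of genes in the same of 10 classes of coding length. A total of 28 consensus strings were searched on both strands of the central 150 bp. Genes were named by rule: the 12 with most sites or the highest rank, those densest in sites, up to 3 of each of 12 gene lists, Dync1i1, Hdac9 and Hoxa2 (no peak is listed for Hoxa2, which is not analysed further), and the sites at the extremes of distance or replicate difference. The members, lists and strings were chosen with earlier results of these data known. Scripts were tested on simulated data. Python 3.11.15, numpy 2.4.6, pandas 2.3.3 and scipy 1.17.1 were used. Alternatives covered the overlap, peak strength, list length, hotspots, the distance limit, the coding rule, the annotation, each replicate alone and, added after the data were seen, base composition.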

Additional observations from a re-analysis of the deposited data

How the results depend on the processing

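Of 95 recomputed values, 65 moved by less than the spread between single replicates (counts, by at most 1.5 times). Of the rest, 27 moved by more and 3 reversed. A reversal was counted only for ratios, as a crossing of 1, so a change of sign in a difference was not counted. The causes were not tested. With peaks at or above the median score of their list, the coding sites numbered 1241 in 1136 genes, made up 1.80% of distal sites, held the CTCF string in 21.2%, differed from closed windows by 7.11 points of GC and 10.6 points at the third codon position, and the exon to flank ratio reversed to 0.995. The ratio of coding to intronic density reversed to 0.532 with GC matched and to 0.499 with GC and TSS distance matched. It was 1.11 and 1.27 with limits of 2000 and 500 bp from a TSS, and 1.29 against intron within 500 bp of coding exons. Those limits gave 1.51% and 1.96% of distal sites, 5.33 and 7.16 points of GC, and 7.73 and 10.9 points at the third codon position. CCDS transcripts alone gave 1.60% of distal sites. Hotspots in place of peaks gave 5.34 points of GC and 8.15 at the third codon position, and closed windows of all genes 7.21 and 10.3. With the peaks of either replicate alone there were 2942 to 4083 coding sites in 2444 to 3174 genes, exon to flank ratios of 1.21 to 1.28, GC differences of 5.27 to 5.90 and 7.97 to 8.80 points, and CTCF strings in 11.2 to 15%; the higher counts are those of replicate 1. The difference in median rank between coding and intronic sites was 0.11, and -3.62 to 2.12 with single replicates. It was -0.27 with peaks at or above the median score and -0.26 with a limit of 2000 bp, so its sign is not settled. Sites per named gene stayed within 1.5 times the count given in 113 of 130 cases, and ranged from 6 to 10 in Tchh, 0 to 9 in Syne1 and 2 to 9 in Dst. No paired analysis was possible because there is only 1 group. With the depth not given, exons that hold no site may still be open below detection.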
